A study of Mus musculus with 18 samples.

Results

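The cytosolic ribosomal protein genes, which encode the protein parts of the ribosomes that translate messenger RNA outside mitochondria, were followed across 18 libraries of mouse thyroid cells. They were chosen by symbol alone (Rpl or Rps with a number, plus Rplp0, Rplp1, Rplp2 and Rpsa, without pseudogenes and without the Rps6 kinases), which gave 85 of the 23626 genes of the table. 77 of them encode the core proteins, 31 of the small subunit and 46 of the large subunit, 3 of these in its stalk. The other 8 are paralogues (Rpl3l, Rpl7l1, Rpl10l, Rpl22l1, Rpl32l, Rpl39l, Rps4l and Rps27l). The symbol rule leaves out Fau, a fusion gene that carries a ribosomal protein, and the ribosome-bound protein Rack1.

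Messenger RNA was sequenced at 20 weeks from cells that the labels call YFP-sorted thyrocytes, YFP being a yellow fluorescent protein used to mark cells. The 15 tumours all carried BrafV600E, which keeps the kinase Braf active. 4 of them had K5-Tert in addition, a transgene in which a keratin promoter expresses the telomerase subunit Tert, and are called K5-Tert tumours. In 7 the Tert promoter was changed instead (Tert-123C>T), and these are called Tert-123 tumours, while the 4 Braf tumours had BrafV600E alone. The other 3 libraries were pools without BrafV600E, 1 from mice with K5-Tert, 1 from mice with Tert-123C>T and 1 from the wild type, and the labels give neither the number of mice in a pool nor what drives the Braf and YFP alleles. No label says that each tumour library is a separate animal, so p-values measure the spread between these samples. Tert was at 73.9, 11.2, 19.0 and 53.4 TPM in the K5-Tert tumours, between 2.65 and 6.23 TPM in the Tert-123 tumours, and between 3.78 and 5.12 TPM in the Braf tumours. TPM is a transcript level per length, scaled to a fixed total in every library, and the read depth is unknown.

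A ribosome joins a small subunit, which reads the messenger RNA, with a large subunit, which forms the peptide bond and whose stalk of Rplp0, Rplp1 and Rplp2 recruits translation factors. Apart from the stalk proteins Rplp1 and Rplp2, each protein is normally present as a single copy per ribosome, and their genes are regulated together. Many of the messenger RNAs begin with a run of pyrimidines, the terminal pyrimidine tract, through which mTOR and the RNA-binding protein Larp1 set how well they are translated. Ribosome supply rises with growth, and the MAPK pathway that BrafV600E activates is known to feed into it.

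The starts of the genes are shown because the tract sits there. RefSeq promoter windows, from 250 bases before to 50 bases after each annotated start on GRCm38.p6, were found for 64 of the 85 genes. A tract, searched as a C followed by at least 4 bases that are each C or T and beginning within 5 bases of the annotated start on the gene's strand, was present in 30 of 64 (46.9%), against 21.1% of the 26961 other genes with a window. Its length had a median of 7.5 bases and a range of 5 to 17. The 30-base windows below run 10 bases before to 20 bases from the start, 5′ to 3′, with the tract in capitals. They show a long tract (Rpl27a), a tract in genes named below (Rpl12, Rps18, Rps6, Rpl22l1), and an annotated start where the search found no tract (Rps16). The search also found no tract for Rps7, Rpsa, Rpl41, Rpl9 and Rplp0, which are named in the K5-Tert comparisons below. Starts other than the annotated ones were not searched, so a gene counted without a tract may still have one.
Rpl27a (chr7:109519185-109519214, plus strand): cgtgagctcCTCCCTTTTCCCTTTCTgcca
Rpl12 (chr2:32961702-32961731, plus strand): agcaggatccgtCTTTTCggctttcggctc
Rps18 (chr17:33955646-33955675, minus strand): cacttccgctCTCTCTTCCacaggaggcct
Rps6 (chr4:86857348-86857377, minus strand): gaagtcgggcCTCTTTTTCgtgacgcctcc
Rpl22l1 (chr3:28805498-28805527, plus strand): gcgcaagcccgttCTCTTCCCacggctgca
Rps16 (chr7:28350679-28350708, plus strand): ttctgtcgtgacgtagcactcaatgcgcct

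The letters CCGGAAG or their reverse complement CTTCCGG are the core bound by ETS factors. They were present anywhere in the promoter window on either strand in 26 of 64 genes (40.6%), against 9.85% of the other genes. The window reaches past the start, and in some genes, such as Rpl11, the only match lies after it. The E-box CACGTG was found in 9.38% against 8.09%, and TATAAA at 20 to 40 bases before the start in 1.56%, which is Rpl22l1 alone, against 2.41%. The windows below hold the ETS core in capitals for 3 genes that were higher in K5-Tert tumours and for Rps18.
Rps7 (chr12:28635949-28635978, minus strand): tttcagaagagCTTCCGGtttccacccacc
Rpsa (chr9:120127567-120127596, plus strand): cgccccagctaCTTCCGGcctggggtctgt
Rpl41 (chr10:128549206-128549235, minus strand): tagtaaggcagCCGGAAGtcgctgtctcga
Rps18 (chr17:33955722-33955751, minus strand): agaagcaatttCCGGAAGtggacctccggg

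Levels per length spanned several orders. 15 genes averaged over 1000 TPM across the 18 libraries, 55 lay between 100 and 1000 TPM, 7 between 10 and 100 TPM and 8 under 10 TPM. The 5 highest carried 23.0% of the summed level, and included the stalk genes Rplp1 (2951 TPM) and Rplp2 (2208 TPM), Rps23 of the decoding region (1800.3 TPM) and Rpl41, which encodes the shortest of these proteins (1739 TPM). The lowest were Rpl26, listed at 0 in 18 of 18 libraries, Rpl39l, Rpl10l, Rpl3l and Rpl30, none of which averaged over 1.19 TPM. Rpl26, Rpl30, Rpl34 and Rps27 are used by every cell, so their entries at or near 0 are given only as listed. Near-identical copies in the genome limit how reads can be assigned: 75 of the 85 genes share at least 1 stretch of 100 bases with another gene's transcript, and 33 share more than 50% of them. Rps27 shares 98.37% with other genes, Rps2 58.49% with 36 other genes, and Rpl29 50.95% with 27.

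Genes were tested where they reached 10 TPM in at least 4 libraries, which kept 7825 genes in all and 78 of the 85. The 7 that were not tested are Rpl26, Rpl30, Rpl34, Rps27, Rpl3l, Rpl10l and Rpl39l.

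Several libraries stand apart. K5-Tert tumours 2, 3 and 4 had 1191, 1908 and 1050.1 TPM of the nuclear RNA Malat1, against 5902 TPM in K5-Tert tumour 1 and 5762 to 7496 TPM in the Braf tumours. The median of all genes tested lay at -0.92, -0.28 and -0.75 relative to the mean of the Braf tumours (log2) in those 3 libraries, and at 0.03 in K5-Tert tumour 1. In the same 3 libraries longer transcripts had lower levels (Spearman's rho across genes -0.52, -0.22 and -0.40), whereas rho was 0.30 in K5-Tert tumour 1. Rpph1, a noncoding RNA of ribonuclease P, took 43.7% to 68.8% of a library, so each share below depends on it. Xist, the X-inactivation RNA, was at 0.0294 TPM or less in K5-Tert tumours 1, 2 and 4 and at 0.0636 TPM or less in Tert-123 tumours 5, 6 and 7, but at 52.5 to 89.9 TPM in K5-Tert tumour 3, Tert-123 tumours 1 to 4 and the Braf tumours. The 13 thyrocyte markers summed to 419 to 563 TPM in K5-Tert tumours, 420 to 1335 TPM in Tert-123 tumours, 634 to 805 TPM in Braf tumours and 26948 to 33428 TPM in the pools, with Slc26a4 at 0 in 2 pools. Markers of other cells were also present. The Tert-123C>T pool held 174 TPM of T cell, 2058 TPM of C cell and 633 TPM of parathyroid markers. Airway markers summed to 2516 to 7426 TPM in tumours, and both red cell markers were at 0 throughout. Which cells these transcripts came from was not tested. Fibroblast markers summed to 212 to 1676 TPM in K5-Tert tumours, 89.0 to 2379 TPM in Tert-123 tumours and 161 to 697 TPM in Braf tumours, and macrophage markers to 505 to 3841 TPM, 221 to 5164 TPM and 607 to 1041 TPM in the same order. Pericyte and smooth muscle markers summed to 34.9 to 183 TPM in K5-Tert tumours (median 88.6 TPM), 10.3 to 92.2 TPM in Tert-123 tumours (median 30.4 TPM) and 16.9 to 35.9 TPM in Braf tumours (median 24.3 TPM), so that only the lowest K5-Tert tumour lay within the range of the Braf tumours. Endothelial markers summed to 10.9 to 113 TPM, 16.1 to 75.2 TPM and 20.7 to 26.6 TPM in the same order, and to 826 TPM in the Tert-123C>T pool. Sample names of the K5-Tert tumours carry numbers that are all above those of the other tumours, so a separate cohort and K5-Tert cannot be told apart. How much of any result below follows Malat1, Xist, Rpph1 or these markers was not tested beyond the alternatives given. In bulk samples, fewer cells of a type and less RNA per cell cannot be told apart.

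Ribosomal protein genes took the largest mean share of the table in K5-Tert tumours, with overlap between groups. Their summed level was 5.09%, 7.08%, 7.38% and 5.99% of all TPM in the K5-Tert tumours, a mean of 6.39 ± 1.05% (SD, n = 4). It was 4.99 ± 0.996% (n = 7, 3.51% to 6.72%) in Tert-123 tumours and 4.68 ± 0.660% (n = 4; 4.02%, 4.27%, 5.46% and 4.97%) in Braf tumours. The pools held 4.11% with K5-Tert, 4.15% with Tert-123C>T and 2.89% in the wild type. K5-Tert tumours 2, 3 and 4 lay above every Braf tumour, and K5-Tert tumour 1 lay among them. With Rpph1 taken out of the total, the shares were 12.2%, 22.7%, 16.5% and 18.5% in K5-Tert tumours, 11.2 ± 1.39% in Tert-123 tumours, 11.2 ± 0.672% in Braf tumours, and 8.38%, 10.5% and 7.93% in the pools with K5-Tert, with Tert-123C>T and of the wild type. On that scale all 4 K5-Tert tumours exceeded every Braf tumour, whose highest was 11.9%. Tert-123 tumour 2, at 14.0%, lay above K5-Tert tumour 1, at 12.2%. All 15 tumours except Tert-123 tumours 3 and 6 exceeded all 3 pools. As a sum over genes chosen with earlier results known, this share was given no test. The large subunit outweighed the small in all groups, with a ratio of 1.411 ± 0.0325 in K5-Tert, 1.403 ± 0.0564 in Tert-123 and 1.476 ± 0.0258 in Braf tumours. K5-Tert tumours 2, 3 and 4 (1.3925, 1.394 and 1.397) lay below every Braf tumour (1.439 to 1.4996), and K5-Tert tumour 1 (1.459) lay among them. The pools were at 1.433 with K5-Tert, 1.362 with Tert-123C>T and 1.393 in the wild type. This ratio was not tested.

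**Figure D1:**
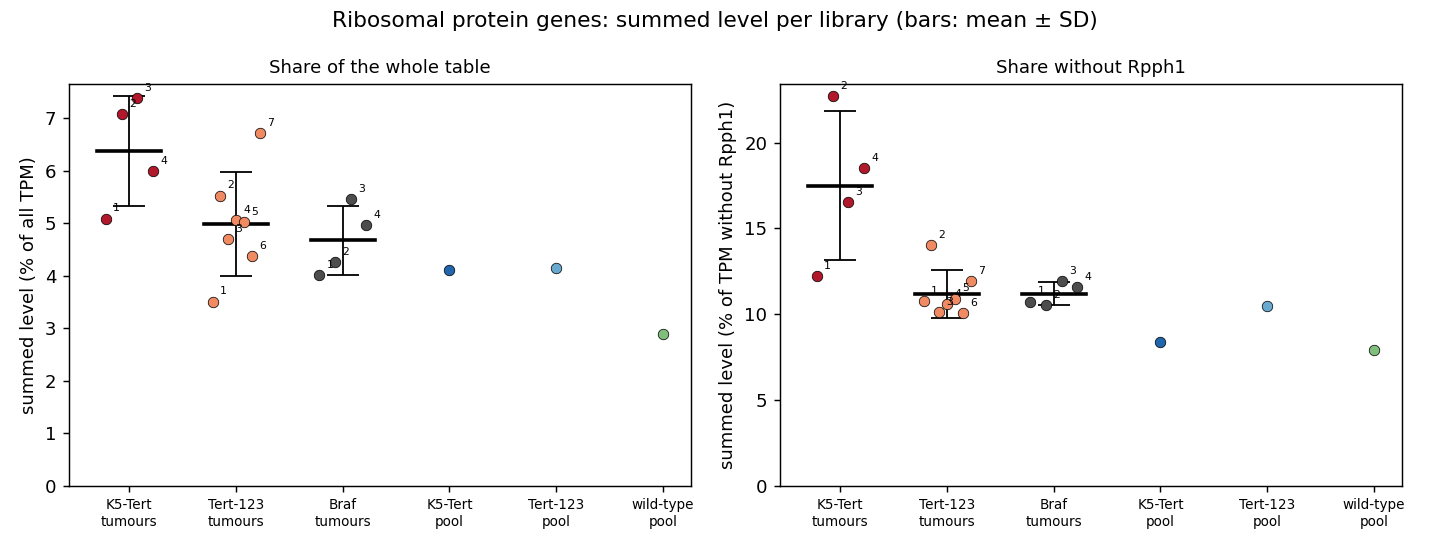
Summed level of the 85 ribosomal protein genes in each library, as a percentage of all TPM (left) and of TPM without Rpph1 (right), by group; points are libraries with their number, and bars give mean ± SD of the tumour groups. K5-Tert tumours averaged 6.39% of the table, Tert-123 tumours 4.99% and Braf tumours 4.68%, and the wild-type pool was lowest at 2.89%.

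**Figure D2:**
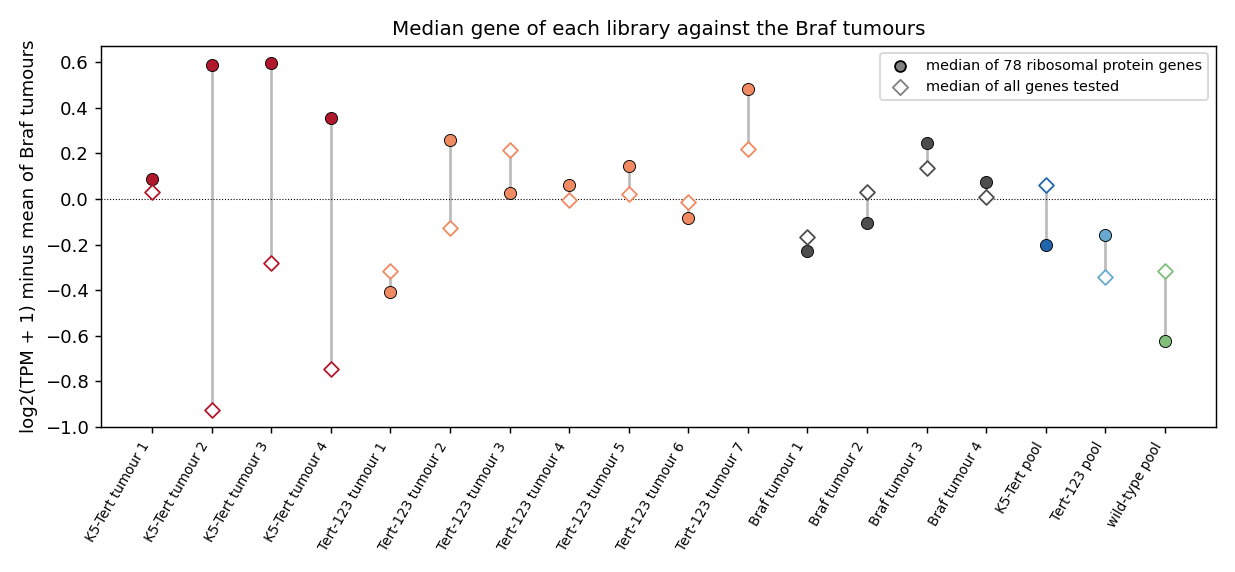
Median log2 difference from the mean of the Braf tumours in each library, for the 78 tested ribosomal protein genes (filled circles) and for all 7825 genes tested (open diamonds). The 2 medians lie furthest apart in K5-Tert tumours 2, 3 and 4, where ribosomal protein genes are above 0 and the median gene is below it.

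K5-Tert tumours were set against Braf tumours to see the effect of the transgene on a Braf background. 11 of the 78 ribosomal protein genes were higher in K5-Tert tumours and 0 were lower, where 0.626% of all genes tested were higher and 21.2% lower (limma, Benjamini-Hochberg adjusted p under 0.05). They included Rps7, Rpl41, Rpsa, Rps14, Rpl3, Rpl9, Rpl18, Rps6 and Rpl8, and the 11 are 5 of 30 tested core genes of the small subunit and 6 of 43 of the large subunit. Fold changes were positive for 76 of 78, with a median of 0.40 on the log2 scale, while the median over all genes tested was -0.47. 15 of the 78 had all 4 K5-Tert tumours above all 4 Braf tumours, against 1.14% of all genes, and Rpl7l1 had all 4 below, against 16%.

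Rps7, a small subunit protein needed to process ribosomal RNA, was at 516.5, 905, 929 and 808 TPM in K5-Tert tumours, against 270, 271.5, 337.5 and 405 TPM in Braf tumours. The groups did not overlap, and its log2 fold change was 1.28 ± 0.29 (SE, adjusted p = 0.00875). Rpsa, a small subunit protein that is also known as the laminin receptor, was at 677, 721, 1108 and 701 TPM in K5-Tert tumours, against 394, 399, 454 and 436.5 TPM in Braf tumours. All 4 K5-Tert tumours were again the higher ones, with K5-Tert tumour 3 at the top (0.90 ± 0.21, adjusted p = 0.0106). Rpl41 was at 2053, 2562, 2718 and 2200 TPM in K5-Tert tumours, against 1160, 1103, 1539 and 1263 TPM in Braf tumours (0.91 ± 0.22, adjusted p = 0.0116). Rpl3, which lies near the peptidyl transferase centre, stood out because K5-Tert tumour 1 was its highest library: 553.5, 509, 474 and 465 TPM in K5-Tert tumours, against 245, 270, 331 and 292 TPM in Braf tumours (0.82 ± 0.19, adjusted p = 0.0101).

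Other small subunit genes followed with smaller steps. Rps14, the small subunit gene whose partial loss impairs red cell formation in humans, averaged 974 ± 333 TPM in K5-Tert tumours and 528 ± 117 TPM in Braf tumours, and K5-Tert tumour 1, at 618.5 TPM, lay below Braf tumour 3, at 702 TPM (0.84 ± 0.26, adjusted p = 0.0288). Rps6, the substrate of the S6 kinases downstream of mTOR, averaged 391 ± 69.8 TPM in K5-Tert tumours and 256 ± 32.4 TPM in Braf tumours (0.60 ± 0.21, adjusted p = 0.0456). Of the large subunit genes, Rpl9 averaged 443 ± 88.7 TPM in K5-Tert tumours and 264 ± 43.1 TPM in Braf tumours (0.74 ± 0.23, adjusted p = 0.0301). Rps2, which lines the messenger RNA entry, had a fold change as large as Rps7 but varied so much within groups that it did not pass (1.29 ± 0.53, adjusted p = 0.0830). Of the 11 genes, 6 had a promoter window, 2 with a tract and 4 with CCGGAAG; of the other 67, 52 had a window, 26 with a tract and 19 with CCGGAAG.

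The number called changed when libraries were left out. Without K5-Tert tumours 2 and 4 it was 0, although 73 of 78 fold changes were positive with a median of 0.33 (all genes -0.12). That fit keeps fewer K5-Tert tumours, so its count cannot show whether the calls depend on the libraries left out. Without K5-Tert tumours 2, 3 and 4 the median was 0.09 (all genes 0.03). Leaving out K5-Tert tumour 1, 2, 3 or 4 in turn gave 25, 4, 6 and 4, and leaving out Braf tumour 1, 2, 3 or 4 gave 5, 4, 6 and 6 for the number higher. Rpl7l1 was the only gene called lower in any of these, and that was without K5-Tert tumour 1. With Xist as a covariate 1 was higher. The count also depended on the scaling. Factors that set most genes equal gave 52, with the median of all genes at 0.02 and that of the ribosomal protein genes at 0.93. Quantile normalization likewise brought the median of all genes to about 0 (-0.0055) but left the count at 11, with a median of 0.26 for the ribosomal protein genes and 68 of 78 positive. Rescaling without Rpph1 gave 35, and it also widened the set tested, to 10819 genes and 79 ribosomal protein genes.

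**Figure D3:**
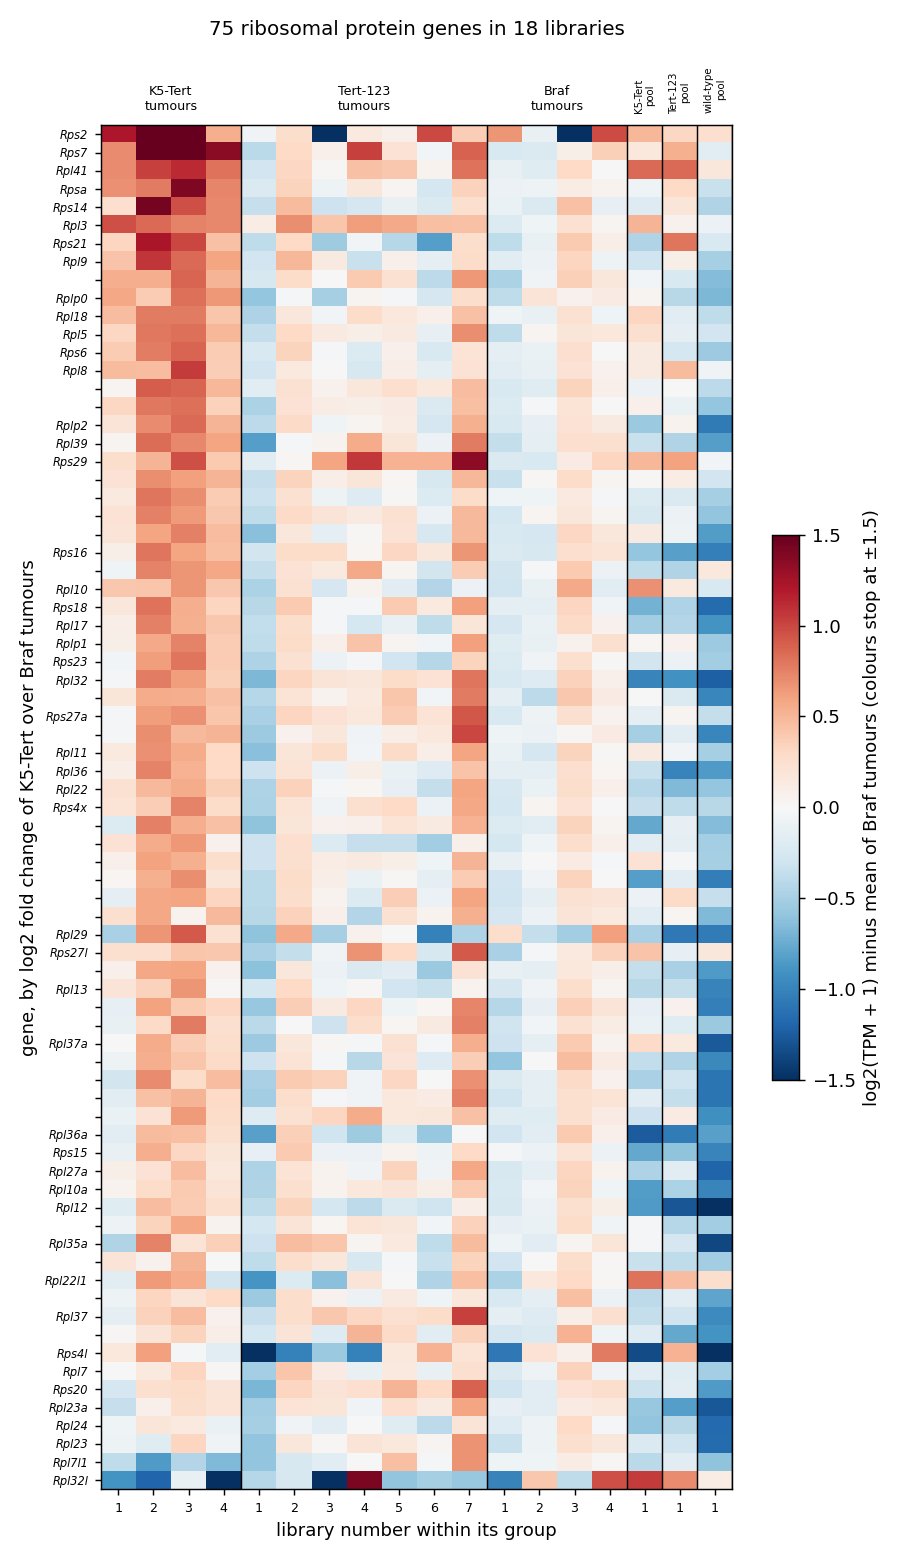
log2(TPM + 1) of 75 of the 78 tested ribosomal protein genes minus the mean of the Braf tumours, for 18 libraries in columns and genes in rows, ordered by the fold change of K5-Tert over Braf tumours; colours stop at ±1.5 and genes described in the text are labelled. K5-Tert tumours 2, 3 and 4 are red in nearly every row, K5-Tert tumour 1 is red mainly at the top, and the wild-type pool is blue in most rows.

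K5-Tert tumours were next set against Tert-123 tumours, which carry a different Tert alteration on the same Braf background. 20 of the 78 genes were higher in K5-Tert tumours and 1, Rpl7l1, was lower, where 0.805% of all genes tested were higher and 28.5% lower. The 20 are 8 of 30 tested core genes of the small subunit and 12 of 43 of the large subunit, including the stalk genes Rplp0 and Rplp2. 71 of 78 fold changes were positive, with a median of 0.33 (all genes -0.47). 7 genes had all 4 K5-Tert tumours above all 7 Tert-123 tumours, against 0.243% of all genes: Rpl3, Rpl8, Rpl10, Rplp0, Rps6, Rps21 and Rpsa. 0 had all 4 below, against 5.19% of all genes. Rpl3 itself did not pass the test (0.35 ± 0.17, adjusted p = 0.119).

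Rpsa had the smallest p, at the K5-Tert levels given above and with a lowest, median and highest level of 349, 432 and 535 TPM in Tert-123 tumours (0.85 ± 0.19, adjusted p = 0.00638). Rplp0, the base of the stalk, was at 814, 709, 963 and 856 TPM in K5-Tert tumours, against 362, 534 and 652 TPM (lowest, median and highest) in Tert-123 tumours (0.77 ± 0.20, adjusted p = 0.0110). Rps21, a small subunit protein on the solvent side, was at 531, 991.5, 850.5 and 578 TPM in K5-Tert tumours, against 239, 325 and 522 TPM in Tert-123 tumours (0.98 ± 0.25, adjusted p = 0.0102). In these 3 genes the groups did not overlap, though the gap for Rps21 was narrow.

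Rps7 differed by 0.99 ± 0.26 (adjusted p = 0.0119), but Tert-123 tumours 4 and 7, at 643 and 583 TPM, lay above K5-Tert tumour 1, at 516.5 TPM. Rps14 differed by 0.92 ± 0.23 (adjusted p = 0.0101), Rpl9 by 0.70 ± 0.20 (adjusted p = 0.0180), and Rpl41 by 0.66 ± 0.20 (adjusted p = 0.0202). Rpl10, which joins late in the assembly of the large subunit and is encoded on the X chromosome, averaged 727 ± 67.1 TPM in K5-Tert tumours and 472 ± 85.3 TPM in Tert-123 tumours (0.64 ± 0.20, adjusted p = 0.0239). Rps2 had the largest fold change, 1.33 ± 0.47 (adjusted p = 0.0416), with 480, 594, 756 and 300.4 TPM in K5-Tert tumours against 49.1, 228.5 and 408 TPM (lowest, median and highest) in Tert-123 tumours, which overlap.

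The count was 0 without K5-Tert tumours 2 and 4, where 71 of 78 fold changes were positive with a median of 0.28 (all genes -0.12), and 0 without 2, 3 and 4, with a median of 0.03 (all genes 0.03). It was 3, 7 and 5 when K5-Tert tumour 2, 3 or 4 alone was left out, 11, 12 and 11 without Tert-123 tumour 3, 5 or 6, and 13 without Braf tumour 2, which enters through the shared estimate of the spread.

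Tert-123 tumours were compared with Braf tumours to ask what the promoter change adds. No ribosomal protein gene passed the test: 0 of 78 were higher and 0 lower, where 0% of all genes tested were called in either direction. 2 of the 78 had an unadjusted p under 0.05, against 51 of all 7825 genes. The fold changes ran from -0.49 to 0.56 with a median of 0.08, and 53 were positive. Rpl3 had the smallest p, with 395 ± 50.1 TPM in Tert-123 tumours and 284 ± 36.3 TPM in Braf tumours (SD, n = 7 and 4), a log2 difference of 0.47 ± 0.17 (limma adjusted p = 0.9997). Rps29, a zinc-binding protein of the small subunit, averaged 1402 ± 522 TPM in Tert-123 tumours and 911 ± 173 TPM in Braf tumours (0.56 ± 0.25), and Rpl37, also zinc-binding, averaged 287 ± 84.0 TPM and 225.5 ± 32.0 TPM in the same order (0.31 ± 0.22). Tert-123 tumour 7 was the highest library of that group for both genes, and 0 of the 78 genes separated the groups fully. Among all genes, 0.0256% separated them upward and 0.0767% downward.

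The Braf mutation was compared with its absence over all 18 libraries, beside a term for the Tert allele, so that 15 tumours stood against 3 pools. Each pool is the only library of its genotype, so the p-values rest mostly on the spread between tumours. The fit also assumes that the effects of Braf and of the Tert allele add. 30 of the 78 genes were higher with the Braf mutation and 0 were lower, where 15.4% of all genes tested were higher and 10% lower. The 30 are 10 of 30 tested core genes of the small subunit and 20 of 43 of the large subunit. 71 of 78 fold changes were positive, with a median of 0.49, while the median over all genes tested was 0.07. 10 of the 78 had all 15 tumours above all 3 pools, against 5.71% of all genes: Rpl10a, Rpl12, Rpl13, Rpl17, Rpl23a, Rpl32, Rpl36, Rps15, Rps16 and Rps18. 0 had all 15 below, against 5.69% of all genes.

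Rpl12, which forms the base of the stalk with Rplp0, was at 884, 1378, 1311 and 1186 TPM in K5-Tert tumours, at 766, 835 and 1264 TPM (lowest, median and highest) in Tert-123 tumours, and at 846, 944, 1189 and 1064 TPM in Braf tumours. The K5-Tert pool, at 557 TPM, the Tert-123C>T pool, at 412 TPM, and the wild-type pool, at 345 TPM, were all below every tumour. Its log2 fold change was 1.24 ± 0.19 (adjusted p = 3.2e-05). Rpl32, a large subunit protein, was at 1236, 2156, 1942 and 1618 TPM in K5-Tert tumours, at 789, 1466 and 2207 TPM in Tert-123 tumours, and at 1072, 1104, 1601 and 1334 TPM in Braf tumours, against 632, 669 and 540.3 TPM in the pools (1.24 ± 0.22, adjusted p = 2.2e-04). Rps16, a small subunit protein near the decoding site, was at 498, 820, 707 and 638 TPM in K5-Tert tumours, at 385, 564 and 742 TPM in Tert-123 tumours, and at 403, 395, 559 and 538 TPM in Braf tumours, against 313, 265 and 230.0 TPM in the pools (1.04 ± 0.20, adjusted p = 3.8e-04). None of the 3 genes overlapped between tumours and pools.

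Further large changes were in Rpl36a, another X-linked large subunit gene (1.01 ± 0.23, adjusted p = 0.00193), Rps18 of the small subunit head (0.97 ± 0.20, adjusted p = 9.5e-04), Rpl23a, which sits at the peptide exit tunnel (0.94 ± 0.20, adjusted p = 9.6e-04), and Rpl29 (0.88 ± 0.30, adjusted p = 0.0321). Rpl36 rose by 0.87 ± 0.17 (adjusted p = 6.1e-04) and Rps15 by 0.87 ± 0.17 (adjusted p = 5.8e-04). Among the 30 genes, 21 had a promoter window, 10 with a tract and 7 with CCGGAAG; among the other 48, 37 had a window, 18 with a tract and 16 with CCGGAAG. Removing each library's mean and its trend with transcript length left 5 genes higher and 8 lower. Leaving out the wild-type pool gave 9 higher and leaving out the K5-Tert pool gave 19. The pools also carry the thyrocyte and C cell transcripts given above at many times the tumours' level, and the part of these in the comparison was not tested.

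**Figure D4:**
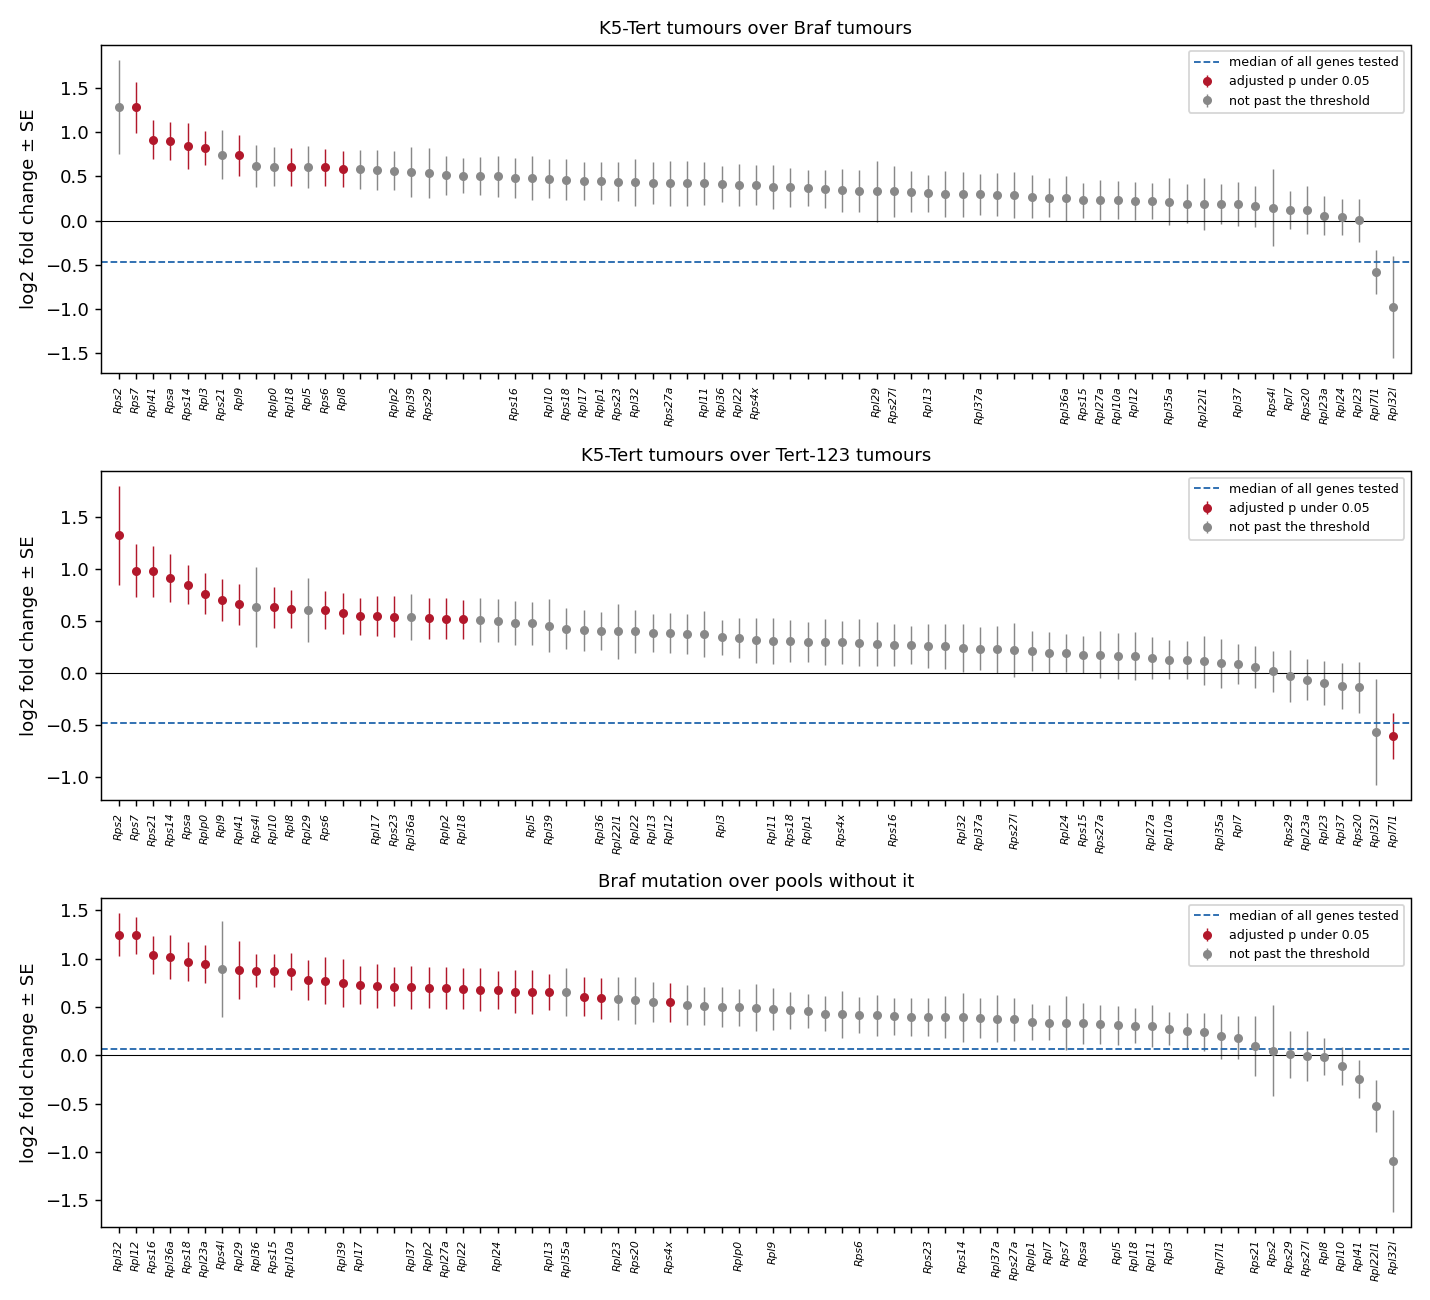
log2 fold change ± SE of 75 of the 78 tested ribosomal protein genes in 3 comparisons, K5-Tert over Braf tumours, K5-Tert over Tert-123 tumours, and Braf mutation over pools without it; red points have an adjusted p under 0.05 and the dashed line is the median of all genes tested. That median is -0.47 in both K5-Tert comparisons and 0.07 for the Braf mutation, while 73, 68 and 69 of the 75 genes drawn lie above 0; genes described in the text are labelled.

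Levels relative to the other ribosomal protein genes of the same library do not move with the total of the table, so each library's median over the 78 genes was subtracted and the fits were repeated. On this scale K5-Tert tumours differed from Braf tumours in 4 genes that were higher (Rps7, Rpl41 and Rpsa among them) and 5 that were lower (Rpl32l, Rpl7l1, Rpl23, Rpl24 and Rpl23a), where 0.345% of all genes were higher and 69.2% lower. Rps7 lay at 0.08, 0.41, 0.41 and 0.50 relative to its library's median in K5-Tert tumours, against -0.48, -0.55, -0.65 and -0.19 in Braf tumours, so it stood on opposite sides of the median in the 2 groups (difference 0.82 ± 0.21, adjusted p = 0.00463). Rpl41 lay 2.07, 1.91, 1.96 and 1.95 above the median in K5-Tert tumours, against 1.62, 1.47, 1.54 and 1.45 above it in Braf tumours (0.45 ± 0.14, adjusted p = 0.00931). Rpl7l1 lay at -4.38, -5.33, -4.94 and -4.88 relative to the median in K5-Tert tumours, against -3.69, -3.76, -3.99 and -3.90 in Braf tumours (-1.05 ± 0.25, adjusted p = 0.00317). These 3 genes separated the groups without overlap, K5-Tert tumour 1 included.

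Rpsa was higher by 0.44 ± 0.17 (adjusted p = 0.0325) on the relative scale. Rpl23, a protein of the subunit interface region, changed by -0.46 ± 0.18 (adjusted p = 0.0272), Rpl24, which forms a bridge between the subunits, by -0.42 ± 0.16 (adjusted p = 0.0295), and Rpl23a by -0.41 ± 0.15 (adjusted p = 0.0221). Without K5-Tert tumours 2 and 4, 0 genes were called in either direction. The number higher was 2 without Braf tumour 2, 3 or 4 or K5-Tert tumour 3 or 4, and the number lower was 3 without Braf tumour 1 and 2 without Braf tumour 2 or 4 or K5-Tert tumour 2 or 4.

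Against Tert-123 tumours the relative levels were higher in K5-Tert tumours for 4 genes (Rps7, Rps21, Rps14 and Rpsa) and lower for 11, where 0.294% of all genes were higher and 77.6% lower. The adjustment was weak here as well, and 18 of the 78 had an unadjusted p under 0.05. The 5 largest of the falls were Rpl7l1 (-1.07 ± 0.22, adjusted p = 0.00101), Rps20 of the small subunit head (-0.60 ± 0.19, adjusted p = 0.00804), Rpl37 (-0.59 ± 0.17, adjusted p = 0.00473), Rpl23 (-0.56 ± 0.16, adjusted p = 0.00427) and Rpl23a (-0.53 ± 0.13, adjusted p = 0.00246). The number lower was 7 without K5-Tert tumour 2, and without K5-Tert tumours 2 and 4 it was 2, with 1 higher. Between Tert-123 and Braf tumours 0 genes differed on the relative scale by limma, where 0% of all genes did; 3 of the 78 had an unadjusted p under 0.05, and 54 of the 78 shifts were positive.

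Centring each library on the family median sets about as many genes above as below, so only the single genes are described for the Braf mutation on this scale. Relative to the family median, 8 genes were higher (Rpl32, Rpl12, Rps16, Rpl36a, Rps18, Rpl23a, Rpl36 and Rps15) and 7 were lower (Rpl32l, Rpl22l1, Rpl41, Rpl10, Rpl8 and Rps29 among them), where 7.54% of all genes were higher and 25.4% lower. By the unadjusted p, 17 of the 78 were under 0.05. Rpl12 lay 0.85, 1.01, 0.91 and 1.05 above the median in K5-Tert tumours and 1.17, 1.24, 1.17 and 1.20 above it in Braf tumours, against 0.50, 0.18 and 0.29 in the pools (0.74 ± 0.15, adjusted p = 5.1e-04). Rpl32 gained as much (0.75 ± 0.14, adjusted p = 2.6e-04), and so did Rps16 to a lesser degree (0.54 ± 0.15, adjusted p = 0.00882). On the other side, Rpl41 lay at most 2.07 above the median in tumours, against 2.52 in the pool with K5-Tert, 2.64 in that with Tert-123C>T and 2.32 in the wild type (-0.74 ± 0.12, adjusted p = 7.1e-05). Rpl10 (-0.60 ± 0.16, adjusted p = 0.00761) lay lower in tumours as well. Without the K5-Tert pool, 5 genes were higher.

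**Figure D5:**
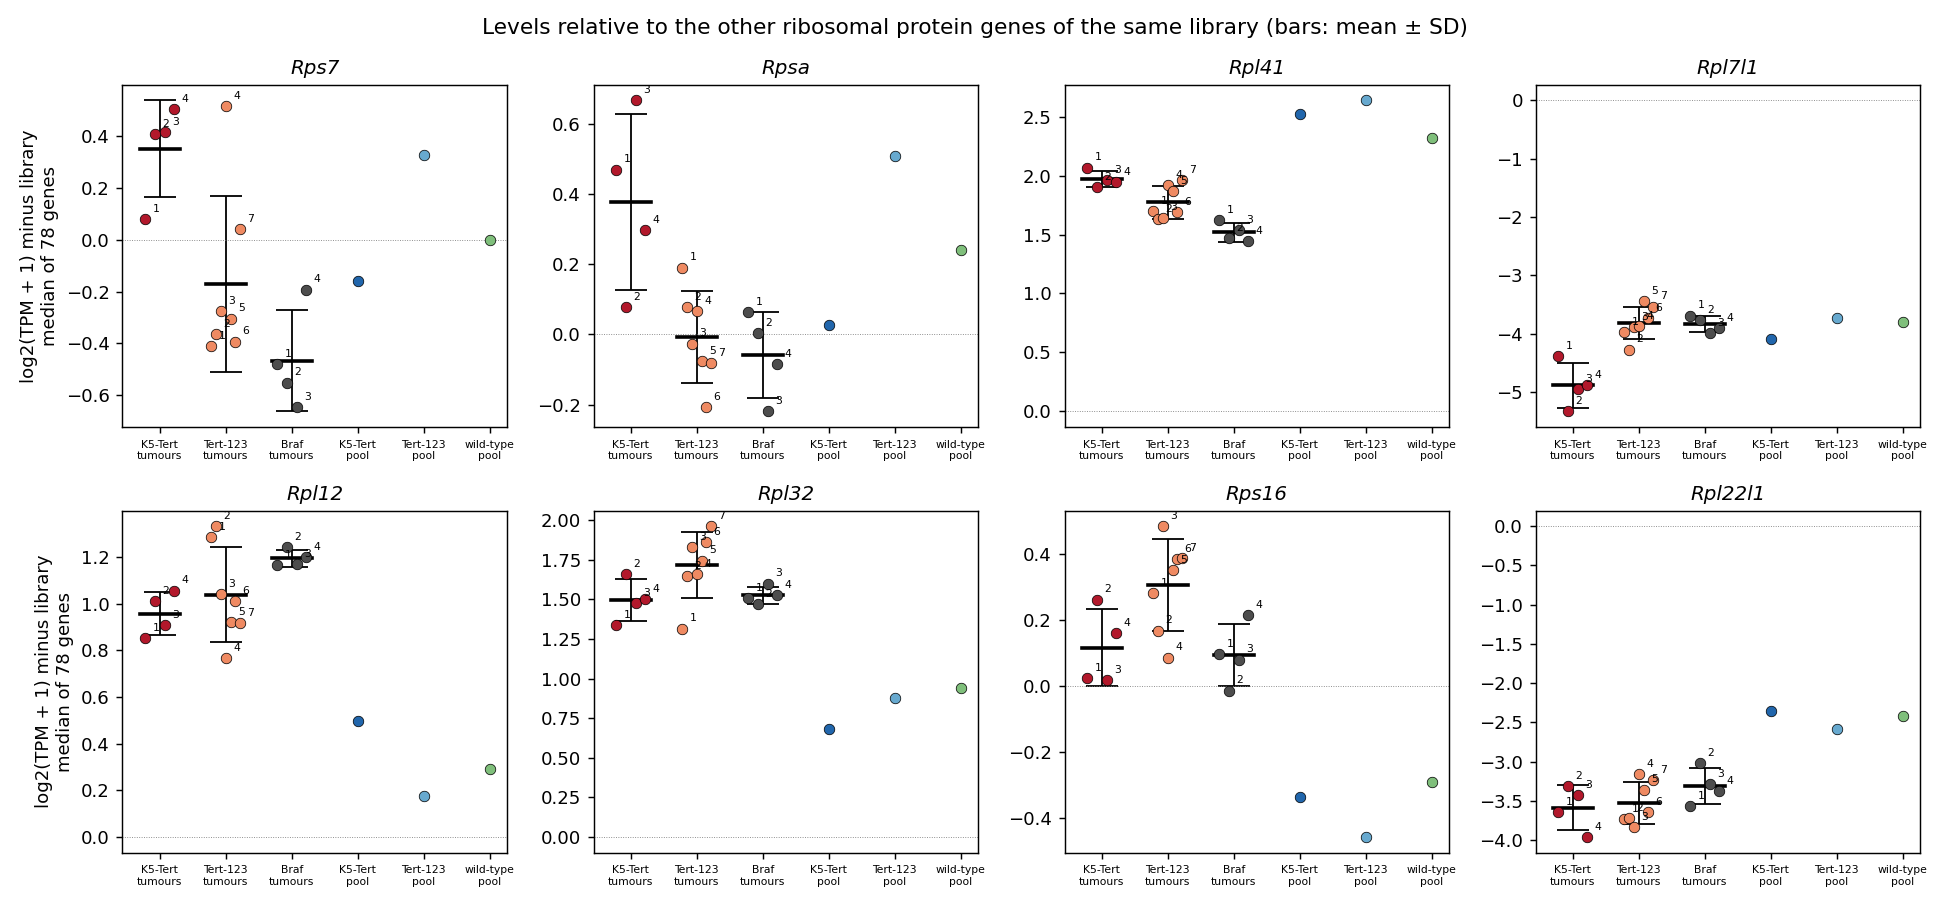
log2(TPM + 1) minus the library's median over the 78 tested ribosomal protein genes for 8 genes, by group; points are libraries with their number, and bars give mean ± SD of the tumour groups. Rps7, Rpl41 and Rpl7l1 separate K5-Tert from Braf tumours, and Rpl12, Rpl32, Rps16, Rpl41 and Rpl22l1 separate all tumours from all pools.

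The paralogues were set beside the core gene that each resembles. Rpl22l1, which can replace Rpl22 in the large subunit, was lower relative to the family with the Braf mutation (-1.02 ± 0.22, adjusted p = 0.00139), and on the unadjusted TPM scale it did not pass (-0.52 ± 0.27, adjusted p = 0.161). Its level as a percentage of Rpl22 was 27.0%, 40.02%, 36.1% and 23.1% in K5-Tert tumours, 23.3%, 32.5% and 40.2% (lowest, median and highest) in Tert-123 tumours, and 30.3%, 43.1%, 36.8% and 34.4% in Braf tumours. The pools held 85.3% with K5-Tert, 78.8% with Tert-123C>T and 64.4% in the wild type, above every tumour. Rpl22l1 shares 50.8% of its 100-base stretches with other genes.

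Rpl7l1, a relative of Rpl7 whose yeast counterpart acts in the assembly of the large subunit, was at 22.6, 16.0, 21.7 and 18.4 TPM in K5-Tert tumours, at 19.3, 29.5 and 47.99 TPM (lowest, median and highest) in Tert-123 tumours, and at 28.3, 28.4, 32.3 and 30.2 TPM in Braf tumours. It was lower in K5-Tert than in Tert-123 tumours (-0.60 ± 0.22, adjusted p = 0.0451), a call that held in 0 of the 4 fits that left out a Braf tumour, and that was absent without Tert-123 tumour 3, 4, 5, 6 or 7 or K5-Tert tumour 2, 3 or 4. As a percentage of Rpl7 it was 2.76%, 1.78%, 2.13% and 2.23% in K5-Tert tumours, 2.30% to 5.001% in Tert-123 tumours, and 4.04%, 3.66%, 3.11% and 3.84% in Braf tumours, so all 4 K5-Tert tumours lay below all 4 Braf tumours on this ratio.

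Rpl32l, a gene named for its likeness to Rpl32, was at 2.45% of Rpl32 or less in all 18 libraries. It was at 1.41 to 6.42 TPM in K5-Tert tumours, 0.978 to 20.2 TPM in Tert-123 tumours, 2.99 to 14.6 TPM in Braf tumours and 7.66 to 15.5 TPM in the pools. It reached 10 TPM in 4 libraries, none of them a K5-Tert tumour, so it was tested only through libraries where it is high. It is therefore counted above but not read as a difference, and it passed no test on the TPM scale. Rps27l, a target of p53, averaged 72.3 ± 4.90 TPM in K5-Tert, 65.6 ± 26.1 TPM in Tert-123 and 58.4 ± 13.6 TPM in Braf tumours and passed no test. Rps4l averaged 17.8 ± 4.73 TPM, 12.4 ± 7.04 TPM and 17.3 ± 8.43 TPM in the same order and passed no test either. Rpl3l, a muscle form of Rpl3, reached at most 2.28 TPM, Rpl10l, a testis form of Rpl10, at most 2.92 TPM, and Rpl39l, a testis form of Rpl39, at most 0.441 TPM.

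Genes with roles outside the ribosome gave mixed results. Rpl5 and Rpl11, which bind the p53 inhibitor Mdm2 when ribosome assembly is disturbed, passed the test in no comparison. Rpl5 averaged 299 ± 50.3 TPM in K5-Tert, 217 ± 51.7 TPM in Tert-123 and 196 ± 32.6 TPM in Braf tumours (K5-Tert over Braf 0.61 ± 0.23, adjusted p = 0.0671), with all 4 K5-Tert tumours above all 4 Braf tumours. Rpl11 averaged 207 ± 34.8 TPM, 170 ± 40.3 TPM and 155 ± 28.1 TPM in the same order (0.42 ± 0.25, adjusted p = 0.203). Rps27a, which is made as a fusion with ubiquitin, did not pass either (0.42 ± 0.26, adjusted p = 0.215). The X-linked Rps4x was higher with the Braf mutation (0.55 ± 0.20, adjusted p = 0.0487). Of the stalk genes, Rplp1 passed in no comparison, at 3628 ± 683 TPM in K5-Tert, 2972 ± 670 TPM in Tert-123 and 2646 ± 348 TPM in Braf tumours, whereas Rplp2 was higher in K5-Tert than in Tert-123 tumours (0.53 ± 0.19, adjusted p = 0.0466) and with the Braf mutation (0.70 ± 0.21, adjusted p = 0.0188).

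Within groups, ribosomal protein genes varied less than other genes in K5-Tert tumours and about as much elsewhere. The median SD of log2(TPM + 1) over the 78 genes was 0.28 in K5-Tert, 0.33 in Tert-123 and 0.24 in Braf tumours, against 0.55, 0.35 and 0.21 over all genes tested in the same groups. Rps2 was the most variable core gene, with a 15.4-fold range over the 15 tumours: it was at 49.1 TPM in Tert-123 tumour 3 and 70.5 TPM in Braf tumour 3, against 756 TPM in K5-Tert tumour 3. The 36 other genes that share stretches with it make these values uncertain. Transcripts of the 78 genes are short, with a median of 853 nt against 2818 nt over all genes tested, and across these genes the fold change of K5-Tert over Braf tumours had a Spearman's rho of 0.06 with length, against -0.38 over 7773 genes (genes are not independent replicates).

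Other genes of translation were counted beside the family. Of 24 tested translation partners, 3 were higher and 1 lower in K5-Tert than in Braf tumours, where 0.626% of all genes tested were higher and 21.2% lower. They were the elongation factor subunit Eef1b2 at 259 ± 42.0 TPM in K5-Tert and 153 ± 26.4 TPM in Braf tumours (0.76 ± 0.24, adjusted p = 0.0337), Fau at 598 ± 118 TPM and 370 ± 41.7 TPM (0.68 ± 0.22, adjusted p = 0.0331), Rack1 at 565 ± 88.6 TPM and 363 ± 30.7 TPM (0.63 ± 0.22, adjusted p = 0.0439), and the helicase Eif4a2, the lower one, at 49.3 ± 10.6 TPM and 86.0 ± 16.6 TPM (-0.80 ± 0.25, adjusted p = 0.0303). Eef1b2 was also higher than in Tert-123 tumours (0.67 ± 0.22, adjusted p = 0.0280). With the Braf mutation 4 of the 24 partners were higher, a share near the 15.4% of all genes tested, namely Tpt1 (0.95 ± 0.22, adjusted p = 0.00265), Eif4b (0.63 ± 0.20, adjusted p = 0.0249), Rack1 (0.56 ± 0.19, adjusted p = 0.0364) and Fau (0.56 ± 0.20, adjusted p = 0.0400). The medians of the 24 were 0.24 for K5-Tert over Braf tumours, 0.10 for K5-Tert over Tert-123 tumours and 0.18 for the Braf mutation. Without K5-Tert tumours 2 and 4 none of the 24 passed in limma against Braf or Tert-123 tumours (6 and 2 had an unadjusted p under 0.05), with medians of 0.34 and 0.23.

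Among regulators of ribosomal protein genes and messenger RNAs, some were lower in K5-Tert tumours. Of 16 tested, 6 were lower and 0 higher than in Braf tumours, with a median of -0.69 (all genes -0.47), where 21.2% of all genes tested were lower. They were the kinase Mtor at 9.95 ± 5.02 TPM in K5-Tert and 18.3 ± 2.73 TPM in Braf tumours (-0.92 ± 0.27, adjusted p = 0.0253), its partner Rptor (-0.81 ± 0.25, adjusted p = 0.0272), the tract-binding Larp1 at 21.8 ± 13.1 TPM and 35.8 ± 4.03 TPM (-0.87 ± 0.31, adjusted p = 0.0473), Rps6kb2 (-1.25 ± 0.28, adjusted p = 0.00870), Tbp (-0.99 ± 0.28, adjusted p = 0.0210) and Mycn (-1.52 ± 0.29, adjusted p = 0.00449). Against Tert-123 tumours 9 were lower, with a median of -0.69 (all genes -0.47), where 28.5% of all genes tested were lower. Without K5-Tert tumours 2 and 4 none of the 16 passed in limma against Braf or Tert-123 tumours (2 and 3 had an unadjusted p under 0.05), with medians of -0.16 and -0.19, and over all genes 17 were lower in each comparison. With the Braf mutation Eif4ebp1, which restrains translation downstream of mTOR (1.53 ± 0.24, adjusted p = 4.5e-05), and Mycn (1.15 ± 0.38, adjusted p = 0.0274) were higher, and Myc, an activator of ribosomal protein genes (-1.37 ± 0.28, adjusted p = 8.5e-04), Max and Mtor were lower, where 15.4% of all genes tested were higher and 10% lower. Between Tert-123 and Braf tumours 0 genes of either list were called.

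The 3 pools, 1 library for each genotype, allow values side by side and no test. The ribosomal protein genes were higher with K5-Tert than in the wild type by a median of 0.50 on the log2 scale (all genes 0.37), with 74 of 78 above 0, and higher with Tert-123C>T than in the wild type by a median of 0.47 (all genes -0.03), with 72 of 78 above 0. Between the K5-Tert and the Tert-123C>T pool the median was 0.00 (all genes 0.42), with 39 of 78 above 0. In the K5-Tert pool 3 of the 78 were more than 2-fold higher than in the wild type, a smaller share than the 1017 of all 7825 genes. In the Tert-123C>T pool 8 of the 78 were, a share near that of all genes (741 of 7825). Rpl37a was at 304 TPM in the K5-Tert pool and 276 TPM in the Tert-123C>T pool, against 104 TPM in the wild type, and Rpl35a at 290.1 and 247 TPM, against 113 TPM. Rpph1 took 50.9% of the K5-Tert pool, 60.4% of the Tert-123C>T pool and 63.6% of the wild-type pool. With Rpph1 taken out of the total, the family's shares were 8.38%, 10.5% and 7.93% in the same order. The markers of other cells in the Tert-123C>T pool given above also stand beside these values. Their part and that of Rpph1 were not tested.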

How the data were processed

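RNA was taken from 9000 to 20000 sorted YFP+ cells, and low-input messenger RNA libraries were amplified by 14 PCR cycles and read as paired ends, per the labels' protocols. The deposited table of normalized counts was treated as TPM, because each of the authors' columns sums to a fixed total; for aligner, quantifier, build and annotation, nothing is given in the sources used here. The 26 rows with date-like names were dropped (at most 0.0455% of a library), leaving 23626, of which 23499 matched a reference symbol. No 2 columns were identical. Depth is unknown, so no counting interval is given.

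log2(TPM + 1) of genes at 10 TPM in at least 4 libraries was fitted with limma 3.58.1 (R 4.3.3, trend), the 3 tumour groups together (residual degrees of freedom: 12) and Braf beside the Tert allele over 18 libraries (residual degrees of freedom: 14), with Benjamini-Hochberg adjustment over all genes tested and a threshold of 0.05, two-sided. Fold changes are on the log2(TPM + 1) scale and understate changes of low genes. Relative levels subtract each library's median over the tested ribosomal protein genes. The method was tested on data simulated with independent noise for each gene. These held no shift of whole libraries and no length trend, so the libraries that stand apart were not covered. Members, lists and alternatives were chosen with earlier results of these data known. Named genes are the stalk, Rpsa, Rps6, Rpl3, Rpl5, Rpl10, Rpl11, Rps4x, Rps27a, the paralogues, up to 8 called genes each way per comparison (5 on the relative scale, the smallest p up to 3 where fewer passed), the 5 highest and lowest by level, and up to 5 partners per comparison; genes named outside it (Rpl18, Rpl8, Rpl35a, Rpl37a, Rpl27a, the regulators and complete lists of non-overlapping genes) were chosen after their values were seen. Transcript lengths and shared 100-base stretches come from GENCODE M21 transcripts, and promoter windows from RefSeq on GRCm38.p6. The results of a few genes are not reported here, and counts include them.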

Additional observations from a re-analysis of the deposited data

Results flagged for a closer look

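In groups of 4 to 7 tumours, 135 sets of values were examined, and 13 were picked out. Each of these held a library whose gap to the next one was large against the group's range. Chance alone picks about 1 in 20 where values are independent and continuous. Genes of the same library move together and some values are 0, so the 13 are not set against that rate. In K5-Tert tumours, tumour 3 stood above the others for Rpsa (1108 TPM, others 677 to 721 TPM) and Rpl10 (828 TPM, others 690.3 to 698 TPM), and tumour 1 had a higher ratio of large to small subunit levels (1.459, others 1.393 to 1.397). In Tert-123 tumours, Rpl30 reached 9.73 TPM in tumour 3 (others 0 to 2.37 TPM), Rpl32l 20.2 TPM in tumour 4 (others 0.978 to 5.76 TPM) and Rpl37 456 TPM in tumour 7 (others 177 to 296 TPM).

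In Braf tumours, tumour 3 stood above the others for Rpl10 (773 TPM, others 425 to 482 TPM), Rps14 (702 TPM, others 448 to 483 TPM), Rps18 (1417 TPM, others 1025 to 1087 TPM), Rpl9 (328 TPM, others 234 to 247 TPM) and Rpl3l (1.94 TPM, others 0.923 to 1.06 TPM). Braf tumour 3 also had the highest summed level of the family among the Braf tumours (5.46% of all TPM). Braf tumour 1 was the only Braf tumour with Rpl10l above 0 (1.09 TPM), and Braf tumour 2 the only one with Rpl39l above 0 (0.441 TPM). With the others at 0, any level above 0 is picked out.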

How the results depend on the processing

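No paired analysis was possible because the labels give nothing that matches a library of one group to a library of another. The number of genes higher in K5-Tert than in Braf tumours (11) was 4 with no filter, 52 with TMM-type factors, 35 without Rpph1, 32 with library mean and length trend removed, 1 with Xist as covariate, 6 with only the groups compared, and 0 without K5-Tert tumours 2 and 4 or 2, 3 and 4; without 1 library it ranged from 4 to 25, and the number lower from 0 to 1. Against Tert-123 tumours the number higher (20) was 7, 59, 46, 38, 11 and 10 under the same 6 settings, 13 with a filter of 50 TPM, 0 without K5-Tert tumours 2 and 4 or 2, 3 and 4, and 3 to 30 without 1 library. The 1 gene lower became 0 with no filter, 50 TPM, TMM-type factors, quantile normalization, no Rpph1, length removed, only the groups compared, or either set of K5-Tert tumours left out, and was 0 to 1 without 1 library. With the Braf mutation the number higher (30) was 18 with TMM-type factors and 5 with length removed, and 9 to 39 without 1 library; the number lower (0) was 1 with quantile normalization and 8 with length removed.

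Relative to the family, K5-Tert against Braf tumours gave 1 higher and 2 lower with quantile normalization, 8 higher with length removed, 2 higher and 3 lower with Xist as covariate, and 2 higher and 3 lower with only the groups compared; without 1 library 2 to 5 were higher and 2 to 7 lower, and without K5-Tert tumours 2 and 4, or 2, 3 and 4, 0 were called. Against Tert-123 tumours, 6, 17 and 19 were lower with no filter, 50 TPM and length removed; 3 to 5 were higher and 7 to 15 lower without 1 library, 1 higher and 2 lower without K5-Tert tumours 2 and 4, and 0 of either without 2, 3 and 4. With the Braf mutation 3 were higher with no filter and 5 with length removed, and 5 to 9 higher and 5 to 7 lower without 1 library. Tert-123 against Braf tumours kept 0 calls under every setting run. The summed level of K5-Tert over Braf tumours was 1.36, and 1.29 to 1.46 without 1 library; that of Tert-123 over Braf tumours was 1.07, and 1.0046 to 1.129. Without K5-Tert tumours 2 and 4, or 2, 3 and 4, settings added for the gene lists after seeing the data, 0 translation partners were higher and 0 lower than in Braf tumours (3 and 1 with all libraries) and 0 higher than in Tert-123 tumours (1), and 0 regulators were lower than in either (6 and 9). Of the single ribosomal protein genes named as called, none reversed its direction in the settings run. The causes were not tested. The precision is limited by 4, 7 and 4 tumours a group, 3 pools, and reads shared with copies.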
